A study of Homo sapiens with 15 samples.

Results

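NRF2 is the transcription factor that switches on antioxidant and detoxifying enzymes, and 7 genes of its pathway were followed: NFE2L2, which encodes NRF2, KEAP1, which encodes its repressor, and the targets NQO1, TXNRD1, SRXN1, ME1 and OSGIN1. They were taken by symbol from a count table of 60670 genes in HT-1080, an established human fibrosarcoma cell line. All 7 were present, and all 7 were among the 18563 genes with enough counts to be tested. The selection rule names genes by symbol and uses no measured value, but the genes were chosen with earlier results of these data known.

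The 15 RNA libraries formed 5 groups of 3 biological replicates. Cycling cells received the DMSO vehicle and were collected at 6 h. The senescent state was brought on by 6 days of a dominant negative form of TRF2, a protein that caps telomeres, after which the cells received either the vehicle or 1 µM GNF-7, a multikinase inhibitor first made against BCR-ABL, for 6 h or 24 h. Every library came from this 1 cell line, grown at 5% oxygen in serum free of tetracycline. The libraries used here hold no cycling cells given GNF-7 and no cycling cells at 24 h, so a GNF-7 effect was measured in senescent cells alone, and senescence cannot be told apart from other effects of the TRF2 mutant. GNF-7 was used at 1 dose.

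In unstressed cells KEAP1 holds NRF2 to a CUL3 ubiquitin ligase, and the protein is degraded soon after it is made. Oxidants and electrophiles modify KEAP1, NRF2 then accumulates, pairs with a small MAF protein and binds the antioxidant response element in front of its targets. NRF2 activity is therefore set largely at the level of protein, which these libraries do not measure, while the mRNA of its targets is a usual readout. HT-1080 cells are widely used to study ferroptosis, a form of cell death that follows loss of cystine import and glutathione, both of which NRF2 targets serve.

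On GRCh38 with the GENCODE 29 annotation, NFE2L2 (ENSG00000116044) lies on the minus strand at chr2:177227595-177392697 and KEAP1 (ENSG00000079999) on the minus strand at chr19:10486120-10503741. Among the targets, NQO1 (ENSG00000181019) lies at chr16:69706996-69726951, SRXN1 (ENSG00000271303) at chr20:646615-653370 and ME1 (ENSG00000065833) at chr6:83210389-83431071, all on the minus strand. TXNRD1 (ENSG00000198431) at chr12:104215779-104350305 and OSGIN1 (ENSG00000140961) at chr16:83948282-83966332 are on the plus strand. Counting across shared exons limits a few of these values. SRXN1 shares 2292 of its 2698 exonic bases with AL121758.1 on the same strand, a gene at 0 counts in every library. Reads in the shared bases may have gone uncounted for both genes, so the SRXN1 counts are uncertain and may be too low. NFE2L2 shares 1054 exonic bases with AC019080.1 on its own strand, which held 31 to 201 counts per library. OSGIN1 shares 481 with AC009119.2, which was not among the 60670 genes kept, so whether it limited the OSGIN1 counts is not known. NQO1 shares 575 exonic bases with the antisense gene AC092115.2, which held 0 to 3 counts.

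The windows of 250 bases before the RefSeq start (GRCh38.p14) were searched on both strands for the antioxidant response element core TGACNNNGC, for the AP-1 motif written TGACTCA or TGAGTCA, and for the amino acid response element TGATGNAA. All 7 genes had a window. The element core was in 2 of them, TXNRD1 and ME1, and the AP-1 motif in ME1, where it overlaps the core, and in OSGIN1. These 3 windows are printed because they are the ones with a match, with the matched bases in capitals, 5′ to 3′ on the gene's own strand. Counted from the start, with -1 as the base just before it, the TXNRD1 match lies at -99 to -91, the ME1 match at -137 to -129 and the OSGIN1 match at -97 to -91.
TXNRD1, chr12:104215529-104215778, plus strand: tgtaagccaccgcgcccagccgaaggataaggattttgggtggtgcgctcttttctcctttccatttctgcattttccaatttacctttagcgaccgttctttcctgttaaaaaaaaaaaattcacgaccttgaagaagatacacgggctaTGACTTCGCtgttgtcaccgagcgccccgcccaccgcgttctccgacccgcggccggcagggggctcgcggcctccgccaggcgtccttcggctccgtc
ME1, chr6:83431052-83431301, minus strand: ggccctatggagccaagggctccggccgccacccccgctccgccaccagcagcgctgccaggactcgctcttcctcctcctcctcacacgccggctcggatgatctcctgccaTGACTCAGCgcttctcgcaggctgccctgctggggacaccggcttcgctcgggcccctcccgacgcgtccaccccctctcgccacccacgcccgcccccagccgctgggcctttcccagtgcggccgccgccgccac
OSGIN1, chr16:83952990-83953239, plus strand: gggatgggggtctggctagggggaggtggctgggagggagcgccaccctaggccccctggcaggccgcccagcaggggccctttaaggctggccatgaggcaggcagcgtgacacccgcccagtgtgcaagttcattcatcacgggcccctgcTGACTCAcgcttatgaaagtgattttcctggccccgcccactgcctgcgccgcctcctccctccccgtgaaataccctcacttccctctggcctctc
Of 27305 windows of the same length, 11.0% held the element core, 4.16% the AP-1 motif and 3.19% the amino acid element. NFE2L2, KEAP1, NQO1 and SRXN1 had no match to any of the 3 motifs in these windows. By GENCODE 29, however, all 250 bases of the KEAP1 and NQO1 windows and 170 of the SRXN1 window lie in exons on the same strand. The ME1 window holds 20 such bases, that of OSGIN1 18, and those of NFE2L2 and TXNRD1 0. For KEAP1, NQO1 and SRXN1 the absence of a match therefore describes largely exonic bases. A match describes letters only, and elements that lie further away are outside the windows.

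Library totals ran from 25991007 to 32323393 counts. TERF2, the gene of TRF2, stood at 55.7 to 62.4 CPM (counts scaled to 1000000 per library) in cycling cells and at 278 to 293 CPM in senescent vehicle cells at 6 h, against 212 to 227 CPM with GNF-7 at 6 h. At 24 h it stood at 212 to 226 CPM with vehicle and 128 to 138 CPM with GNF-7. Reads of the mutant and of the cell's own TERF2 are counted together. All 8 mesenchymal markers averaged at least 1 CPM in every group, and their summed level was lowest after 24 h of GNF-7 (7405 to 7721 CPM, against 9853 to 12886 in the other groups). None of 5 epithelial, 5 haematopoietic and 3 endothelial markers averaged 1 CPM in any group. The share of counts from mitochondrial genes was 3.75% to 5.01% in cycling cells, 11.2% to 12.4% in senescent vehicle cells and 13.2% to 15.3% with GNF-7 at 6 h, and 15.1% to 18.7% with vehicle and 22.6% to 24.1% with GNF-7 at 24 h. Both the TERF2 level and the mitochondrial share therefore moved with the groups, and their part in the results below was not tested, except that scaling without mitochondrial genes was tried. In such bulk RNA, fewer cells expressing a gene and less of its RNA per cell cannot be told apart.

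**Figure D1:**
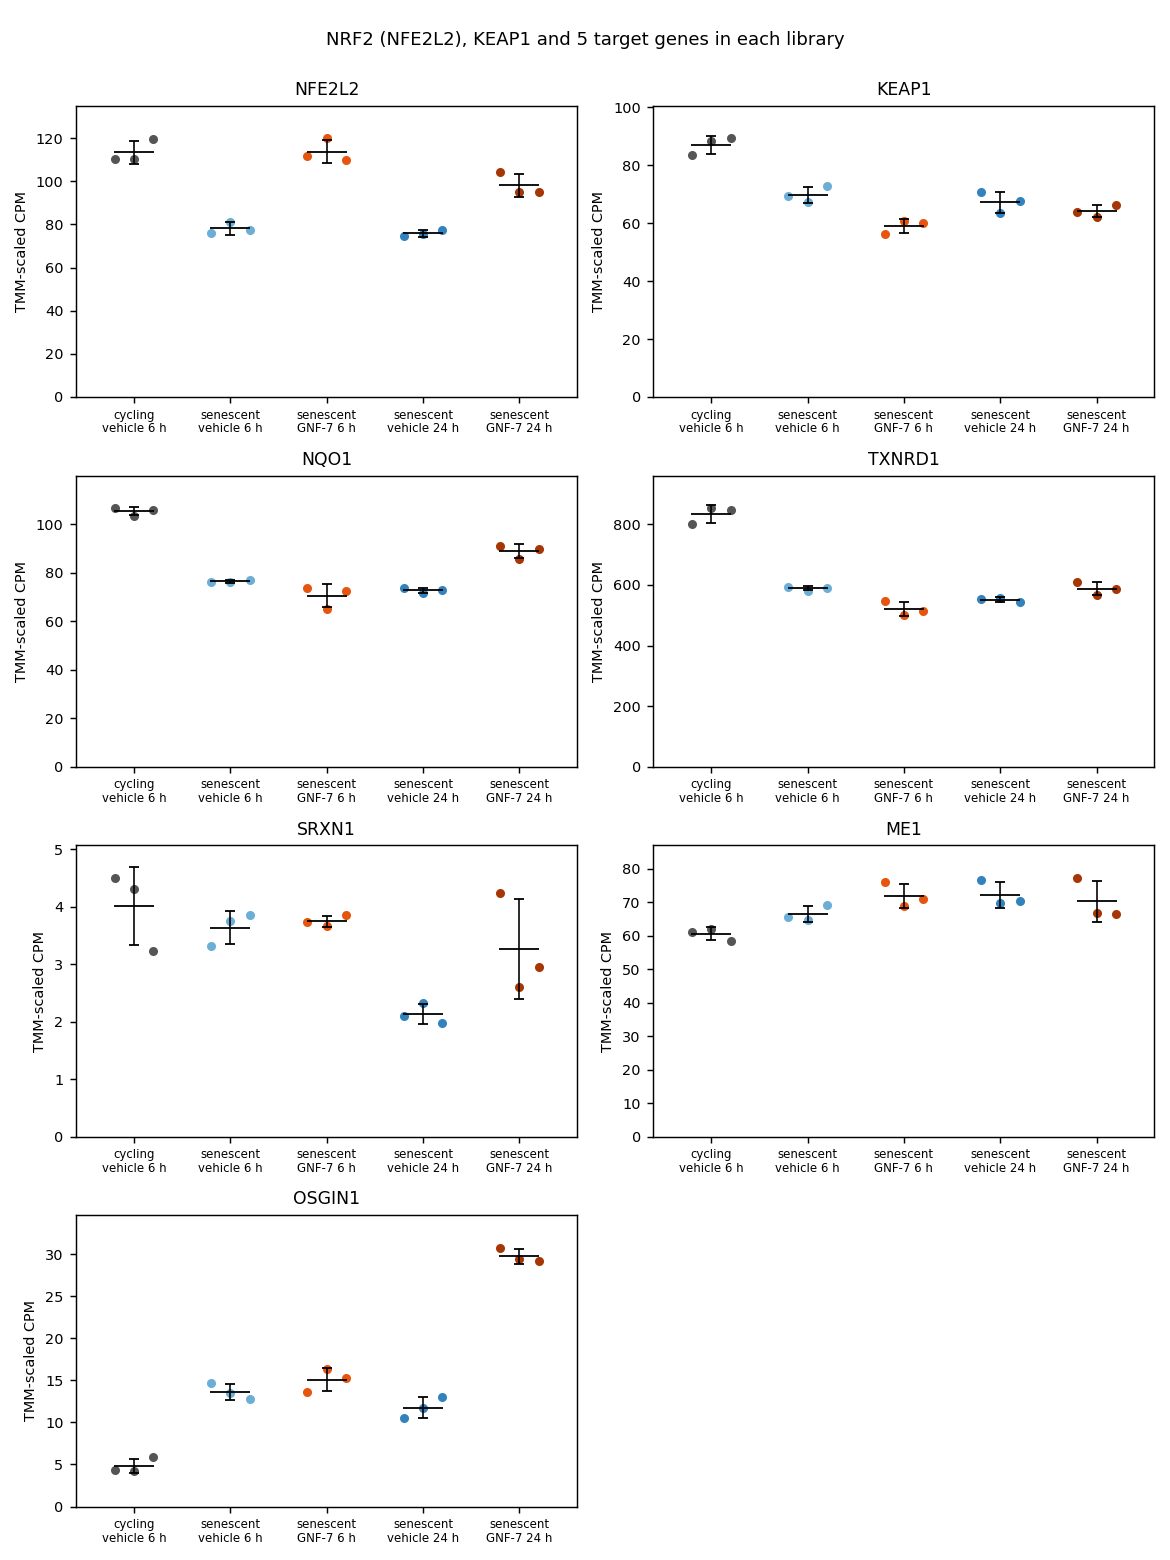
Level of each of the 7 genes (CPM, scaled by library composition, linear axes starting at 0) in the 15 libraries of the 5 groups, where points are libraries and bars are mean ± SD of 3. OSGIN1 runs from 4.27 CPM in a cycling library to 30.8 CPM after 24 h of GNF-7, while TXNRD1, NQO1 and KEAP1 are highest in cycling cells.

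Levels between genes were compared per kilobase of exon. In cycling cells TXNRD1, the cytosolic thioredoxin reductase, stood at 124 ± 4.41 CPM per kilobase (SD, n = 3), NQO1, a quinone reductase, at 32.3 ± 0.523, and KEAP1 at 23.1 ± 0.833. NFE2L2 and the malic enzyme ME1 followed with 19.0 ± 0.902 and 18.0 ± 0.574 CPM per kilobase. SRXN1, which repairs overoxidised peroxiredoxins, and OSGIN1, a growth regulator induced by oxidative stress, had the lowest values as counted, 1.49 ± 0.254 and 1.39 ± 0.257 CPM per kilobase. The SRXN1 value is uncertain and may be too low, because 2292 of its 2698 exonic bases are shared with AL121758.1 on the same strand. If reads in those bases were left uncounted, fewer bases gave counts than the length used here. How such reads were treated was not tested. The genes also differed in how far they ranged across groups: the highest over the lowest group mean in CPM was 6.17 for OSGIN1, 1.88 for SRXN1, 1.60 for TXNRD1, 1.47 for KEAP1 and 1.19 for ME1.

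The first comparison asked how the pathway stood in senescent cells before any drug, against cycling cells with the same vehicle at 6 h. NFE2L2, KEAP1, NQO1 and TXNRD1 fell in senescence, by amounts between -0.32 and -0.54 on the log2 scale, while OSGIN1 rose 2.82-fold and ME1 rose slightly. SRXN1 did not pass the test. In all, 2 of 7 genes rose and 4 fell in edgeR's quasi-likelihood test (called at a Benjamini-Hochberg adjusted p below 0.05), where 70.0% of all genes tested were called, 35.6% higher and 34.4% lower. A count of 6 called among 7 is near what that background gives. The libraries of the groups did not overlap for 6 of 7, against 71.5% of all genes.

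NFE2L2 stood at 110.2, 110.3 and 119.6 CPM in the cycling libraries and at 75.8, 81.3 and 77.2 CPM in the senescent ones. Every senescent library was below every cycling one, with a log2 difference of -0.54 (SE 0.046, adjusted p = 2.06e-16). KEAP1 stood at 83.5, 88.3 and 89.3 CPM in cycling and 69.2, 67.2 and 72.7 CPM in senescent libraries, and the groups did not overlap, with a log2 difference of -0.32 (SE 0.048, adjusted p = 2.25e-08). Both the activator and its repressor were thus lower. The ratio of NFE2L2 to KEAP1, each as CPM per kilobase, was 0.786 to 0.842 over the cycling and 0.668 to 0.761 over the senescent libraries, so the 2 ranges lay apart by a small step. The KEAP1 difference was -0.19 with total counts as the scale and -0.17 with genes under a mean of 5 CPM left out. That of NFE2L2 was -0.39 at its smallest over 24 alternatives.

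NQO1 measured 107, 103 and 106 CPM in cycling cells and 76.1, 76.0 and 77.0 CPM in senescent cells, with no overlap, a log2 difference of -0.46 (SE 0.045, adjusted p = 3.73e-14). TXNRD1, the reductase that recharges thioredoxin, measured 799.9, 854 and 848 CPM in cycling and 594, 581 and 589.8 CPM in senescent cells, a log2 difference of -0.50 (SE 0.035, adjusted p = 6.14e-20). Again the lowest cycling library was above the highest senescent one. Over 24 alternatives the smallest differences were -0.31 for NQO1 and -0.35 for TXNRD1. OSGIN1 went the other way: its libraries held 4.34, 4.27 and 5.84 CPM in cycling and 14.7, 13.5 and 12.8 CPM in senescent cells, and every senescent library was at least 12.8 CPM. Its log2 difference was 1.49 (SE 0.11, adjusted p = 4.28e-19).

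ME1, which makes NADPH from malate, stood at 61.1, 62.1 and 58.4 CPM in cycling and 65.6, 64.8 and 69.2 CPM in senescent cells. The groups were apart by a narrow margin, and the log2 difference was 0.14 (SE 0.052, adjusted p = 0.0194), at percentile 53.2 of all genes tested. Without cycling replicate 3 or senescent vehicle replicate 3 the ME1 difference was 0.10 in both cases and no longer passed (adjusted p = 0.123 and 0.124). It was 0.27 with total counts and 0.29 with the 5 CPM filter. SRXN1 was low throughout (51 to 127 counts per library), at 4.50, 4.30 and 3.23 CPM in cycling and 3.31, 3.76 and 3.85 CPM in senescent cells, with overlapping libraries and a log2 difference of -0.14 (SE 0.18, adjusted p = 0.506). Its 95% interval of -0.49 to 0.22 leaves room for a change in either direction.

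Of the regulators and partners of NRF2, 8 of 19 rose and 9 fell, where 35.6% of all genes rose and 34.4% fell (median log2 difference 0.038, against 0.062 over all genes tested). This list includes NFE2L2 and KEAP1 themselves, here and in the comparisons below. The adaptor SQSTM1 (p62), which can draw KEAP1 into autophagy, rose by 1.37 (SE 0.033, adjusted p = 5.95e-43) and the small MAF gene MAFK by 0.85 (adjusted p = 1.81e-20), while its relative MAFF was lower, -1.22 (adjusted p = 4.80e-21). The ligase subunits CUL3 and RBX1 were both lower, -0.69 (adjusted p = 6.65e-20) and -0.77 (adjusted p = 6.87e-18). Of the other NRF2 targets, 16 of 45 rose and 22 fell (median -0.12). Haem oxygenase HMOX1 rose by 2.06 (SE 0.053, adjusted p = 7.62e-42), the iron store FTH1 by 1.04 (adjusted p = 7.28e-37) and the exporter ABCC3 by 2.37 (adjusted p = 9.80e-32), whereas GCLM, the modifier subunit of the enzyme that starts glutathione synthesis, and SLC7A11, the cystine importer, were lower, -0.70 (adjusted p = 1.29e-19) and -0.70 (adjusted p = 1.25e-17).

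Among the genes of NADPH supply, the group that ME1 belongs to, 3 of 19 rose and 13 fell, with a median log2 difference of -0.56. Over all genes tested 35.6% rose and 34.4% fell. The folate enzymes MTHFD2 and MTHFD1 were lower, -1.86 (adjusted p = 1.09e-44) and -1.49 (adjusted p = 2.03e-39), as was RPIA of the pentose phosphate pathway, -1.78 (adjusted p = 2.05e-27). In the thioredoxin and peroxiredoxin system, which holds TXNRD1 and SRXN1, 6 of 20 rose and 9 fell (median -0.12). The thioredoxin inhibitor TXNIP rose by 1.73 (adjusted p = 5.14e-37) and the mitochondrial peroxiredoxin PRDX3 was lower, -0.98 (adjusted p = 2.56e-31). Of other genes linked to reactive oxygen, not all of which encode enzymes that handle it, 6 of 16 rose and 9 fell (median -0.22). Catalase, CAT, was higher by 0.95 (adjusted p = 6.23e-27) and SOD1 lower, -0.52 (adjusted p = 2.78e-18). These lists share members with each other, and counts of FTH1, PRDX1 and FTL can be divided with near-identical pseudogenes, so their values are uncertain. Exons of SQSTM1, MAFK, MAFG, CUL3, FTH1, GCLC, SLC7A11, IDH1, MTHFD2, MTHFD1, PRDX1, ALDH1L2 and MSRB3 overlap another annotated gene, and whether the counting used strand is not given in the sources used here, so these values carry the same doubt.

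The second comparison asked what GNF-7 did within 6 h in senescent cells. NFE2L2 rose 1.46-fold, while KEAP1 fell, and no target gene was called higher. NQO1 and TXNRD1 fell slightly. SRXN1, ME1 and OSGIN1 did not pass the test, which leaves room for a rise. So 1 of 7 genes rose and 3 fell, with 39.3% of all genes called, 17.9% higher and 21.4% lower. For 4 of 7 the libraries of the groups did not overlap, against 47.7% of all genes. The senescent vehicle libraries at 6 h serve as the control here and were the senescent group in the first comparison, so the 2 sets of values are not independent.

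With GNF-7 for 6 h, NFE2L2 stood at 112, 120.0 and 109.7 CPM, against 75.8, 81.3 and 77.2 CPM with vehicle. The lowest treated library was far above the highest vehicle library, and the log2 difference was 0.54 (SE 0.046, adjusted p = 9.99e-16). This value lay at percentile 85.1 of the log2 differences of all genes tested. KEAP1 stood at 56.3, 60.6 and 60.2 CPM with GNF-7 and 69.2, 67.2 and 72.7 CPM with vehicle, without overlap, a log2 difference of -0.24 (SE 0.049, adjusted p = 5.18e-05). With NFE2L2 higher and KEAP1 lower in the same libraries, their ratio per kilobase ran from 1.15 to 1.25, against 0.668 to 0.761 with vehicle and 0.786 to 0.842 in cycling cells.

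NQO1 held 73.6, 65.0 and 72.6 CPM with GNF-7 and 76.1, 76.0 and 77.0 CPM with vehicle, so replicate 2 was the lowest and the groups lay apart by a small margin. Its log2 difference was -0.12 (SE 0.046, adjusted p = 0.0364). The NQO1 call was lost without GNF-7 6 h replicate 2, where the difference was -0.050, and without each vehicle library in turn (-0.12, -0.12 and -0.11). It was also lost with DESeq2 (-0.11) and under 4 other settings given under the dependence on processing. TXNRD1 held 547, 501 and 515 CPM with GNF-7 and 594, 581 and 589.8 CPM with vehicle, every treated library being lower, and its log2 difference was -0.17 (SE 0.035, adjusted p = 4.32e-05).

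OSGIN1 stood at 13.6, 16.3 and 15.3 CPM with GNF-7 and 14.7, 13.5 and 12.8 CPM with vehicle, with overlapping libraries and a log2 difference of 0.14 (SE 0.094, adjusted p = 0.244). For ME1 the values were 75.9, 68.9 and 70.9 CPM with GNF-7 and 65.6, 64.8 and 69.2 CPM with vehicle, which overlap, and the log2 difference was 0.11 (SE 0.052, adjusted p = 0.0754). ME1 passed without GNF-7 6 h replicate 2 (0.16), with genes under a mean of 5 CPM left out (0.17, adjusted p = 0.00590) and with only the groups compared (0.13, adjusted p = 0.0372). SRXN1 stood at 3.73, 3.67 and 3.85 CPM with GNF-7 and 3.31, 3.76 and 3.85 CPM with vehicle, with a log2 difference of 0.043 (adjusted p = 0.878); its 95% interval was -0.31 to 0.40. The sign of this small SRXN1 value turned without vehicle 6 h replicate 1 (-0.022).

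Of the regulators and partners, 7 of 19 rose and 6 fell (median -0.034, against 0.0073 over all genes). Over all genes tested 17.9% rose and 21.4% fell. MAFK rose by 0.89 (SE 0.048, adjusted p = 2.11e-21), from 105 ± 3.19 to 194 ± 20.8 CPM, and RBX1 was lower, -0.42 (adjusted p = 1.44e-07). Of the other NRF2 targets, 8 of 45 rose, near the share of all genes, and 13 fell (median -0.061). SLC7A11 rose from 32.1 ± 1.81 to 161 ± 7.88 CPM (SD, n = 3), a log2 difference of 2.32 (SE 0.052, adjusted p = 7.31e-43), and the isocitrate dehydrogenase IDH1 rose by 1.12 (adjusted p = 7.33e-32). The IDH1 counts do not separate alleles, and NADPH itself was not measured. HMOX1 rose by 0.75 (adjusted p = 1.08e-22), while GCLM was at 0.11 (adjusted p = 0.0709) and did not pass. Within NADPH supply, 3 of 19 rose and 3 fell (median -0.034), and the risers were the mitochondrial folate enzymes MTHFD2 and ALDH1L2, 2.00 (adjusted p = 1.19e-45) and 2.63 (adjusted p = 8.60e-43), and IDH1. In the thioredoxin and peroxiredoxin system, 5 of 20 rose and 7 fell (median 0.030): the stress-induced SESN2 rose by 1.47 (adjusted p = 5.55e-39) and TXNIP by 1.14 (adjusted p = 6.42e-31), and PRDX1 was lower, -0.52 (adjusted p = 3.98e-20). Of the other genes linked to reactive oxygen, 3 of 16 rose and 6 fell (median -0.043). The methionine sulfoxide reductase MSRB3, -0.48 (adjusted p = 1.19e-08), and the kinase OXSR1, -0.27 (adjusted p = 9.27e-07), were lower. The peroxidase GPX8 was higher by 0.37 (adjusted p = 2.45e-08).

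**Figure D2:**
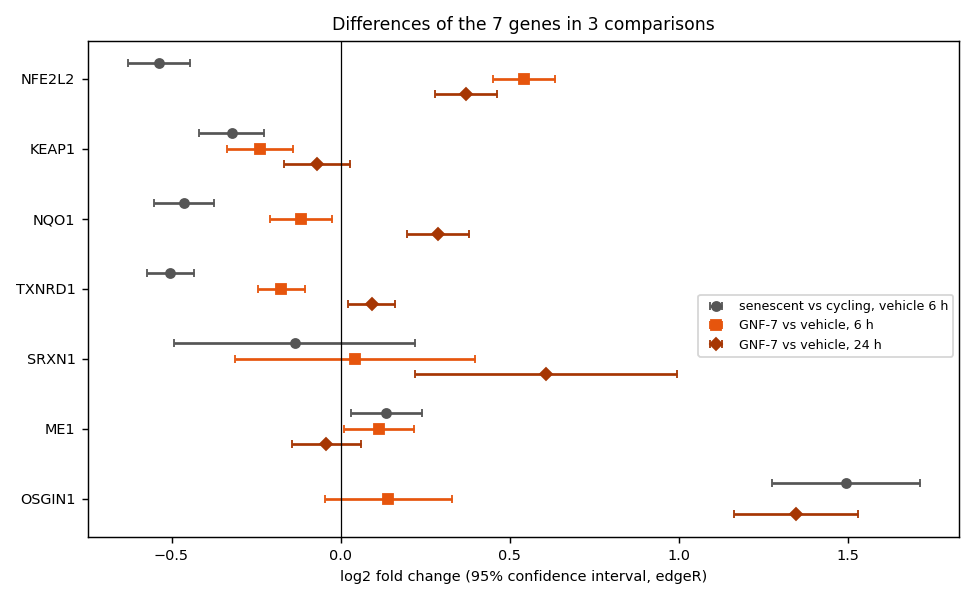
Log2 difference of each gene in senescence against cycling (vehicle, 6 h) and with GNF-7 against vehicle in senescent cells at 6 h and 24 h, with 95% intervals from edgeR. NFE2L2 lies at -0.54, 0.54 and 0.37, and OSGIN1 at 1.49, 0.14 and 1.35.

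The third comparison gave the same contrast after 24 h. By then NFE2L2 was still higher with GNF-7 and 4 of the 5 targets had risen: OSGIN1 2.54-fold, SRXN1 1.52-fold, NQO1 1.22-fold and TXNRD1 1.07-fold. KEAP1 and ME1 did not pass the test. Thus 5 of 7 genes rose and 0 fell, where edgeR called 58.9% of all genes, 29.3% higher and 29.7% lower. The libraries did not overlap for 5 of 7, against 63.2% of all genes.

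OSGIN1 stood at 30.8, 29.4 and 29.1 CPM with GNF-7 and 10.5, 11.7 and 13.0 CPM with vehicle at 24 h. Every treated library held more than any other library of the series, and the log2 difference was 1.35 (SE 0.092, adjusted p = 3.45e-20), at percentile 93.0 of all genes tested. NQO1 stood at 91.1, 85.6 and 89.7 CPM with GNF-7 and 73.7, 71.6 and 72.8 CPM with vehicle, without overlap, a log2 difference of 0.29 (SE 0.046, adjusted p = 1.49e-07). NFE2L2 held 104, 95.2 and 94.96 CPM with GNF-7 and 74.6, 75.4 and 77.6 CPM with vehicle, also without overlap, a log2 difference of 0.37 (SE 0.046, adjusted p = 2.50e-10).

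SRXN1 had few counts, at 4.24, 2.60 and 2.96 CPM with GNF-7 and 2.11, 2.33 and 1.97 CPM with vehicle. The groups did not overlap, but GNF-7 replicate 1 was well above replicates 2 and 3, and the vehicle libraries were the lowest of the series. The log2 difference was 0.61 (SE 0.19, adjusted p = 0.00552), and without GNF-7 24 h replicate 1 it was 0.37 and did not pass (adjusted p = 0.127). TXNRD1 stood at 609, 566 and 587 CPM with GNF-7 and 555, 557 and 543 CPM with vehicle, apart by a narrow margin, with a log2 difference of 0.091 (SE 0.035, adjusted p = 0.0227). That value lay at percentile 53.7 of all genes tested. TXNRD1 lost its call without GNF-7 24 h replicate 1 (0.061) or replicate 3 (0.090), without vehicle 24 h replicate 1 (0.091) or replicate 3 (0.076), and with no filter on low counts (0.068), while the 5 CPM filter gave 0.19. Without GNF-7 24 h replicate 1 only 3 of the 7 genes were called, namely NFE2L2, NQO1 and OSGIN1.

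KEAP1 held 63.9, 62.2 and 66.3 CPM with GNF-7 and 70.6, 63.4 and 67.7 CPM with vehicle, with overlap and a log2 difference of -0.069 (SE 0.049, adjusted p = 0.228). ME1 held 77.3, 66.9 and 66.6 and 76.7, 69.8 and 70.4 CPM, again overlapping, with a log2 difference of -0.042 (SE 0.052, adjusted p = 0.501). Neither value had a firm sign: with genes under a mean of 5 CPM left out they were 0.032 and 0.059. The NFE2L2 to KEAP1 ratio per kilobase was 0.901 to 1.03 with GNF-7 and 0.665 to 0.748 with vehicle, so that the treated range lay above vehicle and below the 1.15 to 1.25 seen with GNF-7 at 6 h.

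**Figure D3:**
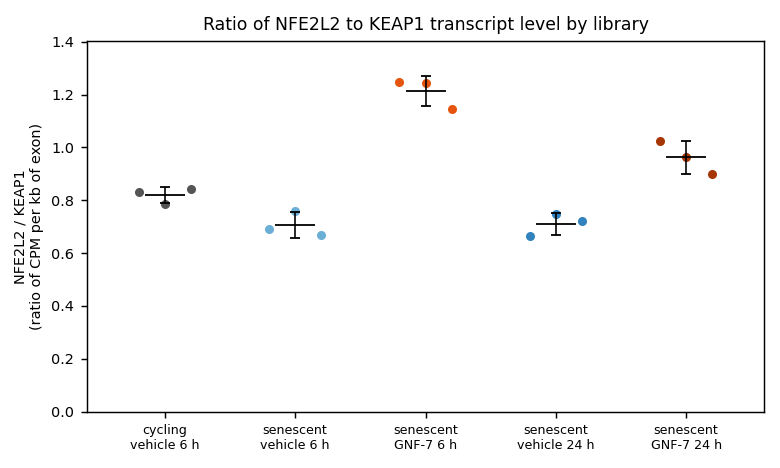
Ratio of NFE2L2 to KEAP1 mRNA (each as CPM per kilobase of exon) in every library, by group, with the group mean ± SD of 3. The 3 libraries with GNF-7 at 6 h lie at 1.15 to 1.25 and those at 24 h at 0.901 to 1.03, above all vehicle libraries.

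At 24 h 7 of 19 rose and 5 fell among the regulators and partners (median -0.023, against 0.038 over all genes). Over all genes tested 29.3% rose and 29.7% fell. SQSTM1 rose by 0.69 (SE 0.033, adjusted p = 1.43e-27), MAFG by 0.83 (adjusted p = 6.71e-25) and MAFF by 1.05 (adjusted p = 1.13e-16), whereas the related factor NFE2L3 was lower, -0.75 (adjusted p = 3.62e-21), as was RBX1, -0.72 (adjusted p = 2.28e-15). Of the other NRF2 targets, 19 of 45 rose and 12 fell (median 0.023), a median near that of all genes, although single members moved far. IDH1 rose from 61.8 ± 1.81 to 299 ± 9.39 CPM (SD, n = 3), a log2 difference of 2.27 (SE 0.042, adjusted p = 7.01e-49), and SLC7A11 from 23.9 ± 2.26 to 174 ± 7.27 CPM, 2.87 (adjusted p = 5.64e-47). FTH1 rose by 0.96 (adjusted p = 9.56e-35) and HMOX1 by 0.93 (adjusted p = 1.82e-28). Both subunits of glutamate-cysteine ligase rose, GCLC by 0.91 (adjusted p = 6.95e-21) and GCLM by 0.57 (adjusted p = 1.59e-15).

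In the thioredoxin and peroxiredoxin system, 7 of 20 rose and 10 fell at 24 h, where 29.3% of all genes rose and 29.7% fell (median -0.091), with PRDX1 lower, -0.90 (SE 0.035, adjusted p = 6.68e-32), and PRDX4 of the endoplasmic reticulum lower, -0.73 (adjusted p = 2.08e-19), beside a rise of SESN2 by 1.67 (adjusted p = 3.80e-42). Among the other genes linked to reactive oxygen, 6 of 16 rose and 8 fell (median -0.24). The kinase OXSR1, PRDX3 and the redox sensor PARK7 were lower, -0.67 (adjusted p = 8.15e-20), -0.44 (adjusted p = 1.95e-14) and -0.44 (adjusted p = 2.20e-14). Within NADPH supply, 4 of 19 rose and 8 fell (median -0.11), and IDH1 was again among the risers, with MTHFD2 at 2.21 (adjusted p = 6.22e-48) and ALDH1L2 at 3.09 (adjusted p = 1.36e-46). The summed mesenchymal markers were also lowest in these treated libraries, and their part in the lower calls was not tested.

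**Figure D4:**
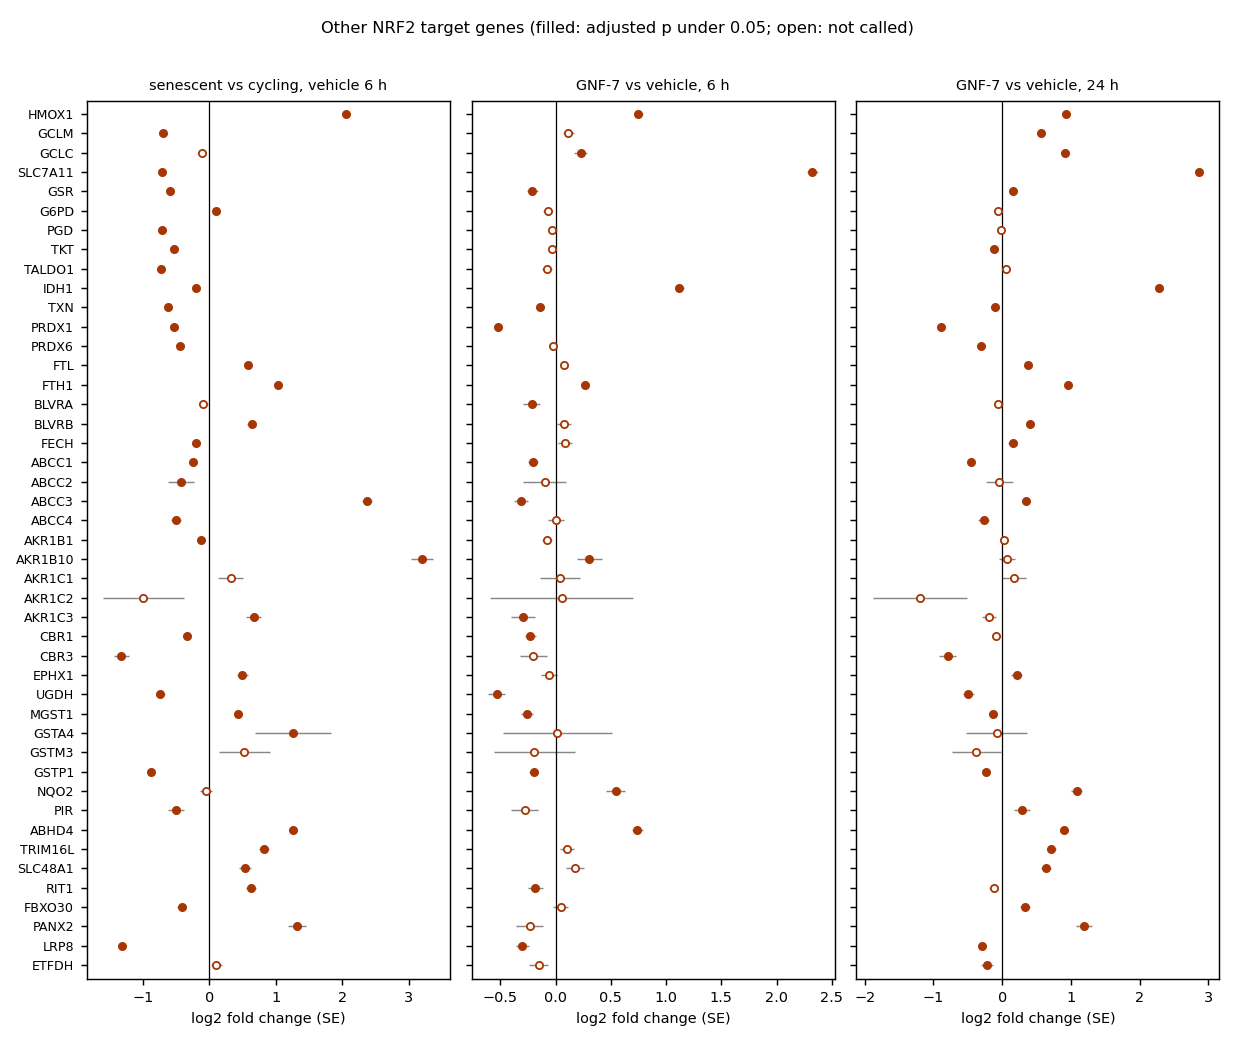
Log2 difference (horizontal axes, whose ranges differ between panels; bars are SE from edgeR) of the 45 other NRF2 targets tested, 1 per line, in senescence against cycling and with GNF-7 against vehicle at 6 h and 24 h; filled points passed the test and open points did not. SLC7A11 lies at -0.70, 2.32 and 2.87, and IDH1 at -0.19, 1.12 and 2.27.

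Whether the GNF-7 effect itself differed between the time points was tested as the effect at 24 h minus that at 6 h. It was larger at 24 h for OSGIN1, NQO1 and TXNRD1, and smaller for NFE2L2. For OSGIN1 the difference of the effects was 1.21 (SE 0.13, adjusted p = 1.97e-11), at percentile 95.4 of all genes, for NQO1 0.40 (SE 0.065, adjusted p = 6.67e-07) and for TXNRD1 0.27 (SE 0.050, adjusted p = 1.72e-05). As scaled here, NQO1 and TXNRD1 turned from slightly lower at 6 h to higher at 24 h. The NQO1 call at 6 h was lost under 9 of 24 alternatives and the TXNRD1 call at 24 h under 5 of 24. Their differences of the effects passed under all 24. For NFE2L2 the difference of the effects had the opposite sign, -0.17 (SE 0.065, adjusted p = 0.0369). In edgeR 3 of 7 genes were called higher and 1 lower, with 30.8% of all genes called, 12.8% higher and 18.0% lower.

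The NFE2L2 difference of effects did not pass with total counts as the scale (-0.15), with no filter (-0.17) or with the 5 CPM filter (-0.12). Leaving out 1 library also ended the call for replicates 1 and 3 of the 6 h vehicle group (-0.15 and -0.16), replicate 2 treated for 6 h (-0.14), replicate 3 of the 24 h vehicle group (-0.16), and replicates 2 and 3 treated for 24 h (-0.15 and -0.15). KEAP1 had 0.17 (adjusted p = 0.0534), SRXN1 0.57 (adjusted p = 0.0975) and ME1 -0.16 (adjusted p = 0.102), none of which passed. KEAP1 did pass in this test with total counts (0.19, adjusted p = 0.0366), with the 5 CPM filter (0.22, adjusted p = 0.00733) and with the replicate number as a block (0.17). It also passed without 6 h vehicle replicate 2 (0.19), 6 h GNF-7 replicate 2 (0.18), 24 h vehicle replicate 1 (0.20) or 24 h GNF-7 replicate 2 (0.19), SRXN1 without 24 h GNF-7 replicate 2 (0.71) and ME1 without 6 h GNF-7 replicate 2 (-0.19) or 24 h GNF-7 replicate 1 (-0.23). Among the other NRF2 targets the effect was larger or less negative at 24 h for 16 of 45 and smaller or more negative for 5 (median 0.13, against 0.00 over all genes). Over all genes tested 12.8% were called higher and 18.0% lower in that test. IDH1 led the other NRF2 targets with 1.15 (adjusted p = 1.14e-24). MAFK was the reverse: it rose at 6 h, stood at -0.057 (adjusted p = 0.340) at 24 h, and had a difference of -0.95 (adjusted p = 4.59e-16).

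Between vehicle at 24 h and at 6 h, SRXN1 alone fell, from 3.31, 3.76 and 3.85 to 2.11, 2.33 and 1.97 CPM, a log2 difference of -0.77 (SE 0.19, adjusted p = 0.00224). That is 1 of 7 genes, with 18.5% of all genes called, 9.26% higher and 9.29% lower. Of all calls 49.9% were higher, and 12.5% with total counts as the scale. The libraries of the 2 times lay apart for 4 of 7, against 32.9% of all genes. TXNRD1 was at -0.094 (adjusted p = 0.0532), NFE2L2 at -0.043 (adjusted p = 0.602) and OSGIN1 at -0.22 (adjusted p = 0.101). TXNRD1 passed without 6 h GNF-7 replicate 1 or 2 (-0.093, -0.10) or 24 h GNF-7 replicate 1 or 2 (-0.092, -0.093), each left out in turn, and under 7 other settings, at -0.088 with the 5 CPM filter to -0.20 with total counts. With total counts as the scale 6 of the 7 were called lower, and the median over all genes was -0.10 in place of 0.0088, so the calls of small changes over time depend on the scaling. The rise of SRXN1 with GNF-7 at 24 h was therefore against a vehicle group in which SRXN1 had fallen.

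Between GNF-7 at 24 h and at 6 h, OSGIN1 rose by 0.98 (SE 0.089, adjusted p = 8.94e-15), NQO1 by 0.33 (adjusted p = 5.25e-09) and TXNRD1 by 0.17 (adjusted p = 3.89e-05), while NFE2L2 fell by 0.21 (adjusted p = 5.63e-05). KEAP1 was higher by 0.12 (adjusted p = 0.0388). In all 4 of 7 rose and 1 fell, with 47.8% of all genes called, 23.1% higher and 24.7% lower. Of all calls 48.3% were higher, and 34.3% with total counts. The libraries lay apart for 5 of 7, against 54.4% of all genes. The KEAP1 call was lost without each 6 h GNF-7 replicate (0.085, 0.12, 0.13) or 24 h GNF-7 replicate 1 or 3 (0.12, 0.095), each left out in turn, and under 6 other settings, at 0.025 with total counts to 0.11 with only the groups compared, and that of TXNRD1 with total counts (0.077). SRXN1 was at -0.20 (adjusted p = 0.376) and ME1 at -0.034 (adjusted p = 0.622), and neither passed, though ME1 did with total counts, at -0.13 (adjusted p = 0.0389). Of the other NRF2 targets, 27 of 45 rose and 4 fell between these times (median 0.22, against 0.022 over all genes).

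Set against cycling cells, the treated senescent cells had lower TXNRD1 and KEAP1 and higher OSGIN1 and ME1 at both times. The ME1 differences lay near the middle of all genes tested, at percentile 55.5 for 6 h and 52.8 for 24 h. With GNF-7 at 6 h the log2 difference from cycling was 0.0042 (adjusted p = 0.935) for NFE2L2, with a 95% interval of -0.085 to 0.094, -0.58 (adjusted p = 4.65e-18) for NQO1, -0.68 (adjusted p = 4.44e-26) for TXNRD1 and -0.56 (adjusted p = 3.14e-16) for KEAP1. ME1 rose by 0.25 (adjusted p = 2.62e-05) and OSGIN1 by 1.63 (adjusted p = 3.78e-21), and SRXN1 did not pass, -0.092 (adjusted p = 0.642). So 2 of 7 rose and 3 fell, where 75.7% of all genes were called, 39.6% higher and 36.1% lower. Libraries lay apart for 5 of 7, against 76.6% of all genes. NFE2L2 was called higher with total counts (0.15) and with the 5 CPM filter (0.21). That filter also moved KEAP1 to -0.36, NQO1 to -0.38 and ME1 to 0.45, and total counts moved ME1 to 0.39.

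After 24 h of GNF-7, OSGIN1 was 6.13-fold above cycling cells, a log2 difference of 2.62 (SE 0.10, adjusted p = 2.09e-32), and ME1 was higher by 0.21 (adjusted p = 2.03e-04). TXNRD1 and KEAP1 were lower, -0.51 (adjusted p = 2.73e-20) and -0.44 (adjusted p = 1.57e-12). NQO1, -0.25 (adjusted p = 1.59e-06), and NFE2L2, -0.21 (adjusted p = 3.23e-05), were lower as scaled here but were at 0.012 and 0.048 with the 5 CPM filter, where their direction turned. The same filter moved TXNRD1 to -0.25, KEAP1 to -0.18 and ME1 to 0.47, and without GNF-7 24 h replicate 1 ME1 was at 0.14. These are 2 higher and 4 lower of 7, with 80.3% of all genes called, 42.7% higher and 37.5% lower. Libraries lay apart for 6 of 7, against 80.9% of all genes. SRXN1 was at -0.29 (adjusted p = 0.129) and passed without cycling replicate 3 (-0.44) or without GNF-7 24 h replicate 1 (-0.53).

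Ordered by group mean, each gene had its own sequence of levels. NFE2L2 ran from senescent vehicle at 24 h (75.9 ± 1.54 CPM, SD, n = 3) and 6 h (78.1 ± 2.85), which overlap, through GNF-7 at 24 h (98.1 ± 5.30) to cycling (113 ± 5.39) and GNF-7 at 6 h (114 ± 5.48), which also overlap. NQO1 was lowest with GNF-7 at 6 h (70.4 ± 4.72) and highest in cycling cells (105 ± 1.70), with GNF-7 at 24 h between them (88.8 ± 2.85). TXNRD1 was highest in cycling cells (834 ± 29.6), and its 4 senescent groups lay between 521 and 588 CPM, with GNF-7 at 24 h overlapping vehicle at 6 h. KEAP1 was lowest with GNF-7 at 6 h (59.0 ± 2.38) and highest in cycling cells (87.0 ± 3.13), while GNF-7 at 24 h and both vehicle groups formed a run of overlapping neighbours. OSGIN1 was lowest in cycling cells (4.82 ± 0.888) and highest with GNF-7 at 24 h (29.7 ± 0.887), both apart from the 3 groups between them, whose neighbours overlap. ME1 was lowest in cycling cells (60.6 ± 1.93), and its senescent groups overlapped in every neighbouring pair. For SRXN1 only vehicle at 24 h (2.14 ± 0.179) stood apart from its neighbour.

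Likeness of pattern was measured as the root mean square difference over the 5 group means in log2 CPM, each gene centred on its own mean, among 11217 genes with a symbol and a mean of at least 5 CPM. NFE2L2 was most like PHF3 (0.040) and GZF1 (0.057), KEAP1 like ABHD3 (0.016) and MAP2K4 (0.029), and NQO1 like ITGB3BP (0.016) and ZNF664 (0.043). TXNRD1 was most like NFATC2IP (0.024) and the haem synthesis enzyme CPOX (0.026), ME1 like ARRDC1-AS1 and ZNF7 (0.022 each), and OSGIN1 like PLCG2 (0.045) and ZDHHC11 (0.071). None of these is one of the 7 genes. Among the 7, the nearest pairs were KEAP1 with TXNRD1 (0.080), NQO1 with TXNRD1 (0.090) and KEAP1 with NQO1 (0.128). Many other genes lay nearer: TXNRD1 had rank 254 in likeness to KEAP1 and rank 126 to NQO1, and NQO1 had rank 1287 to KEAP1. SRXN1 was below 5 CPM and has no such value. These are descriptions over 5 group means that share libraries.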

How the data were processed

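RNA was measured in 15 HT-1080 libraries made with a stranded mRNA kit, per the labels' protocols. The submitters' processing notes name bcl2fastq 2.20.0.422, STAR 2.7.9a and featureCounts 1.5.1 with GRCh38. The annotation release and the strand setting of the counting are not given in the sources used here. The deposited file holds whole-number counts per gene, as the authors counted them, not normalized. Of 60673 entries, 3 fragments of 1 broken entry were left out, and 60670 genes were kept, of which 60400 IDs (99.55%) had a symbol entry. Every column of the table matched a sample, with 0 left over.

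CPM were computed from these counts with TMM scaling (edgeR 4.0.16, R 4.3.3). Genes passing edgeR's default expression filter, 18563, were fitted over all 15 libraries in 1 model with 5 groups, robust quasi-likelihood tests and Benjamini-Hochberg adjustment over all of them. Alternatives used DESeq2 1.42.0, limma 3.58.1 (voom), other scalings and filters, and each library left out in turn. The procedure was tested on simulated data first. No 2 replicates of a group agreed within sampling noise (chi-square per degree of freedom 2.94 to 11.57), so each counted as 1 sample. Pairing was judged on deviations from the group mean in log2 CPM, over genes with a mean of at least 5 CPM. A correlation of these deviations over 0.1 in every pair of same-numbered replicates was taken as pairing. It held for GNF-7 against vehicle at 24 h (r = 0.11 to 0.15) and for GNF-7 at 24 h against 6 h (r = 0.13 to 0.25), from the data and not from the labels. Intervals are at 95%.

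The 7 genes and the lists were chosen with earlier results of these data known. All 7 genes are given, and from each list the 3 genes with the smallest p in each of the first 3 comparisons and genes with a described role. Of the lists, NFE2, GPX2, ALDH3A1, GSTA1, CYP4F11, SOD3, GPX3 and GPX7 had too few counts to be tested, and SOD2 is not used here. Gene positions come from GENCODE 29, and the windows searched for motifs lie before the RefSeq start.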

Additional observations from a re-analysis of the deposited data

Results flagged for a closer look

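For 4 of the 7 genes the effect of GNF-7 in senescent cells differed between 24 h and 6 h, by edgeR's test of the difference of the 2 effects. On the log2 scale, 24 h minus 6 h, the difference was 1.21 for OSGIN1, whose libraries at 24 h with GNF-7 were the highest of the series. It was 0.40 for NQO1 and 0.27 for TXNRD1, both lower than vehicle at 6 h and higher at 24 h as scaled here. The NQO1 call at 6 h was lost under 9 of 24 alternatives and the TXNRD1 call at 24 h under 5 of 24. For NFE2L2 the difference of the effects was -0.17, a smaller rise at 24 h than at 6 h. That call was lost under 9 of 24 alternatives, at -0.12 with genes under a mean of 5 CPM left out. The 4 differences rest on the same 12 libraries, and 30.8% of all genes were called in the same test.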

How the results depend on the processing

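Of 1336 recomputed log2 differences, covering 56 results under up to 24 alternatives, 1243 kept their direction and their side of the threshold, 38 no longer passed, 33 newly passed and 22 changed sign. Of the 56, 31 kept direction and side under every alternative run. Those that changed sign follow. With total counts as the scale SRXN1 was at 0.052 for GNF-7 at 6 h against cycling. With genes under a mean of 5 CPM left out, KEAP1 and ME1 were at 0.032 and 0.059 for GNF-7 at 24 h, ME1 at 0.020 for GNF-7 at 24 h against 6 h, and NFE2L2 and NQO1 at 0.048 and 0.012 for GNF-7 at 24 h against cycling. SRXN1, under that mean, was not tested there. Leaving out 1 library at a time gave -0.028 to 0.037 for NFE2L2 with GNF-7 at 6 h against cycling, -0.11 to 0.0061 for ME1 between the GNF-7 times and -0.022 to 0.082 for SRXN1 with GNF-7 at 6 h. The cause of these changes was not tested.

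The number of the 7 genes called with GNF-7 at 24 h ran from 3 to 5 over the left-out libraries. Between the vehicle times it was 1, but 6 with total counts, and 2 with scaling without mitochondrial genes, DESeq2, voom, a replicate block or only the groups compared, and 1 to 2 over the left-out libraries. NQO1 with GNF-7 at 6 h missed the threshold with DESeq2's size factors in edgeR (-0.11), total counts (-0.10), the 5 CPM filter (-0.064) and only the groups compared (-0.10). With total counts the vehicle times gave 627 genes higher and 4392 lower, in place of 1719 and 1724, and the median over all genes moved from 0.062 to 0.19 in senescence against cycling and from 0.0997 to 0.24 for GNF-7 at 6 h against cycling. The 5 CPM filter gave 9815 genes called for GNF-7 at 24 h against cycling in place of 14903, with 4961 higher in place of 7935, and 4771 higher in place of 7353 at 6 h. It also gave 8 in place of 5 thioredoxin genes higher at 6 h, and at 24 h 7 in place of 12 other NRF2 targets lower and 7 in place of 4 NADPH genes higher. With total counts 9 in place of 4 other targets fell between the GNF-7 times.

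With the replicate number as a block, the replicate block changed 2 calls: KEAP1 in the difference of the GNF-7 effects passed, at 0.17 (edgeR adjusted p = 0.0424), and so did TXNRD1 between the vehicle times, at -0.094 (edgeR adjusted p = 0.0307). It changed no call of the 7 genes in the 2 comparisons where the numbers paired the samples. In the 5 others the deviations of same-numbered libraries from their group means did not all correlate over 0.1, so the numbers were not taken as pairing. By these deviations, in senescence against cycling 1 of 6 libraries correlated best with its own number. For GNF-7 against vehicle at 6 h it was 4 of 6, and between the vehicle times 3 of 6. It was 0 of 6 where treated senescent cells were set against cycling cells. SRXN1, at 51 to 127 counts per library, is the gene that low counts limit most. Reads in the exonic bases it shares with AL121758.1 may have gone uncounted.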

Other observations

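Beyond the genes described above, the windows before the start of the other NRF2 targets were searched for the same element core. It was in 10 of 34 windows (29.4%), against 11.0% of all windows, a description of letters with no test. Among those windows was that of GCLM, with GCTTAGTCA 34 to 26 bases before the start, read on the gene's strand with the core on the other one. Another was that of GSTP1, a glutathione transferase, with TGACTCAGC 66 to 58 bases before the start.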
